A study of Mus musculus with 6 samples.

Results

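The distal chromosome 2 expression block is a run of neighbouring mouse genes between positions 165900000 and 170530000 of chromosome 2, a window of 4.63 Mb in the coordinates of the deposited table (GRCm38). Its members were the protein-coding genes that start in this window. B4galt5, Snai1, and genes named as mitochondrial respiratory, mitochondrial ribosomal or ribosomal components were left out by name. The rule gave 36 of the 54532 genes in the table, which holds 22046 protein-coding genes. Of the 36 members, 28 had enough counts to be tested and 8 did not, and 20 of the tested members had a mean log2 CPM (read counts put on the same library size by TMM scaling) of at least 3. The window was chosen on the same 6 libraries, because its genes lay high in 1 of them and low in another, so the position of the members in each library is given as a description and carries no test. At the edges of the window, Ncoa3, the first member, lay 0.23 above its 6-library mean on the log2 scale in CTC replicate 3, and Zmynd8, the nearest tested protein-coding gene before it, lay 0.35 above. Pfdn4, the last member, lay at -0.62 in that library and Fam210b, the next tested gene after it, at -0.25.

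RNA sequencing was done on cancer cells of 2208L, a mouse mammary tumour carried in Balb/c mice. The CTC group held 3 libraries of circulating tumour cells that were grown out from peripheral blood. The PT group held 3 libraries made after primary tumours of the matched mice were dissociated and their tumour cells enriched, and no library was treated. Growth outside the animal went with the CTC group, so that handling and origin cannot be told apart.

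Genes that lie side by side on a chromosome often share chromatin and regulatory elements, and in tumours a segment can be gained or lost as a unit. Neither chromatin nor DNA copy number was measured here. The human counterpart of this segment carries NCOA3, ZNF217, CYP24A1 and the genes called breast carcinoma amplified sequence, and is known for gains in breast cancer. The members have little in common in function: they include a steroid receptor coactivator (Ncoa3), a mammary transcription factor (Cebpb), an RNA helicase of antiviral defence (Znfx1), a tyrosine phosphatase that dampens insulin receptor signalling (Ptpn1) and a nuclear transport receptor (Cse1l).

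Promoters of 25 of the 36 members, of which 23 were tested, were matched by symbol to RefSeq promoters of GRCm38.p6 that span 250 bases before to 50 bases after each gene's start. Of these, 3 are printed as contrasting examples: Znfx1, the tested member with the highest deviation in CTC replicate 3, Mocs3, a raised member with an interferon-type element, and Pard6b, a member of the same stretch that was not raised. Capitals mark 5 searched motifs on either strand, which were the interferon-stimulated response element (GAAANNGAAA), the CCAAT box, the GC box GGGCGG, the TATA box TATAAA and the E-box CACGTG. The windows are chr2:167062966-167063265 on the minus strand for Znfx1, chr2:168230372-168230671 on the plus strand for Mocs3 and chr2:168080754-168081053 on the plus strand for Pard6b.
Znfx1: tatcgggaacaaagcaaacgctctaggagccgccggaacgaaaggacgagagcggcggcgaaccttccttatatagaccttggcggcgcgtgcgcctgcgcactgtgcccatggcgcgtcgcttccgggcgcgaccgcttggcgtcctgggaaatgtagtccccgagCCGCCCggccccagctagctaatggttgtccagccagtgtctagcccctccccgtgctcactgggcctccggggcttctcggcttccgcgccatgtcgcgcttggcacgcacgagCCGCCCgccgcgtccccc
Mocs3: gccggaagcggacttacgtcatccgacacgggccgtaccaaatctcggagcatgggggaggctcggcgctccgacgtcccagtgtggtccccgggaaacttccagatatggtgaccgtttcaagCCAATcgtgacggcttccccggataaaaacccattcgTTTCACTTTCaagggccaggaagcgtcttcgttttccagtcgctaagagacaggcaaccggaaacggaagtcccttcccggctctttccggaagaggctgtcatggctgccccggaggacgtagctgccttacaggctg
Pard6b: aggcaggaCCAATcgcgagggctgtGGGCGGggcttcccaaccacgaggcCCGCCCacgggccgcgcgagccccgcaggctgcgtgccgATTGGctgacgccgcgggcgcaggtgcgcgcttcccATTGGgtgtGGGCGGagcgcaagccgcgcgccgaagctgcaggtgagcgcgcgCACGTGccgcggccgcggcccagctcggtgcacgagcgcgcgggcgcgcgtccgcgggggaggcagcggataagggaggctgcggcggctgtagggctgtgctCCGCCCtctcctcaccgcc

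In the Znfx1 window only GGGCGG was found, in each case on the opposite strand. The Mocs3 window held the response element, read as TTTCACTTTC on the printed strand, and a CCAAT. The Pard6b window held CCAAT and GGGCGG on both strands and 1 CACGTG. Over the 25 member promoters, GGGCGG was present in 19 (in 35.7% of all 32851 promoters), CCAAT in 9 (37.4%), TATAAA in 3 (13.6%) and CACGTG in 2 (7.15%). The response element was found in 3 (3.44%), namely Mocs3, Dpm1 and the readthrough model Gm20716. These 3 are the same site: Dpm1 and Gm20716 share the window chr2:168230330-168230629 on the minus strand, which overlaps that of Mocs3 head to head. The CCAAT of the Mocs3 window also lies in the bases shared by these 3, which are among the 9 with CCAAT. The member promoters had a median GC content of 62.7% (range 52 to 80.7%) against 52.7% over all promoters, and a median of 26 CpG dinucleotides (range 2 to 50) against 7. These matches describe letters only; binding was not measured.

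Library totals ranged from 23845953 to 27897320 counts, and 3 counts, taken as the floor, were worth between 0.108 and 0.126 CPM. No pair of libraries agreed within sampling noise: the smallest chi-square per degree of freedom was 100.8. Over the 13874 genes tested, 1222 lay at least 2-fold above the 6-library mean in CTC replicate 1 and 1000 in CTC replicate 3. The number was 591 in CTC replicate 2, and 885, 658 and 604 in PT replicates 1, 2 and 3. CTC replicate 3 stood apart in the levels of some gene lists. A list of 24 interferon-response genes, all tested, summed to 3099 CPM in it, against 436 and 278 in the other CTC libraries and 227 to 463 in PT. The summed level of 10 simple epithelial markers was 2347 CPM in it, against 3908 and 5633 in the other CTC libraries and 4152 to 5192 in PT. Krt8 and Krt18, keratins of simple epithelia, were present in every library. Krt19, a keratin of the same list, had 0 counts in CTC replicate 3 and in PT replicate 3. It had 2452 and 1969 counts in CTC replicates 1 and 2, and 129 and 472 in PT replicates 1 and 2. In bulk RNA, fewer cells of a type and less RNA per cell cannot be told apart.

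The members were high in CTC replicate 3 and low in CTC replicate 1. Deviations are log2 CPM minus the mean of all 6 libraries. The median deviation of the 28 tested members was 1.28 in CTC replicate 3, with a middle range of 0.51 to 1.46, and -0.73 in CTC replicate 1. It was -0.12 in CTC replicate 2, and -0.13, 0.03 and -0.10 in PT replicates 1, 2 and 3. The SD of the library medians was 1.03 over the 3 CTC libraries and 0.0853 over the 3 PT libraries. The high and the low library on which the window was chosen were both CTC, so nothing is read from this difference. Over all genes tested the medians lay between -0.03 and 0.04 in every library. The other 918 tested protein-coding genes of the chromosome had medians of 0.0010 in CTC replicate 3 and -0.28 in CTC replicate 1, so the chromosome as a whole was also somewhat low in CTC replicate 1.

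Counted by gene, 17 of the 28 (60.7%) lay at least 2-fold above the mean in CTC replicate 3, where the background over all genes tested was 7.21%. In CTC replicate 1, 7 of 28 (25%) lay at least 2-fold below it, against 8.4% of all genes. CTC replicate 3 was the highest of the 6 libraries for 19 members (67.9%; 14.1% of all genes), and CTC replicate 1 the lowest for 16 (57.1%; 22.9% of all genes). These contrasts chose the members, and nothing is read from the distance to the background. The cumulative curves of deviations show the same values gene by gene: in CTC replicate 3, 24 of the 28 members were above 0, and in CTC replicate 1, 23 were below 0.

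**Figure D1:**
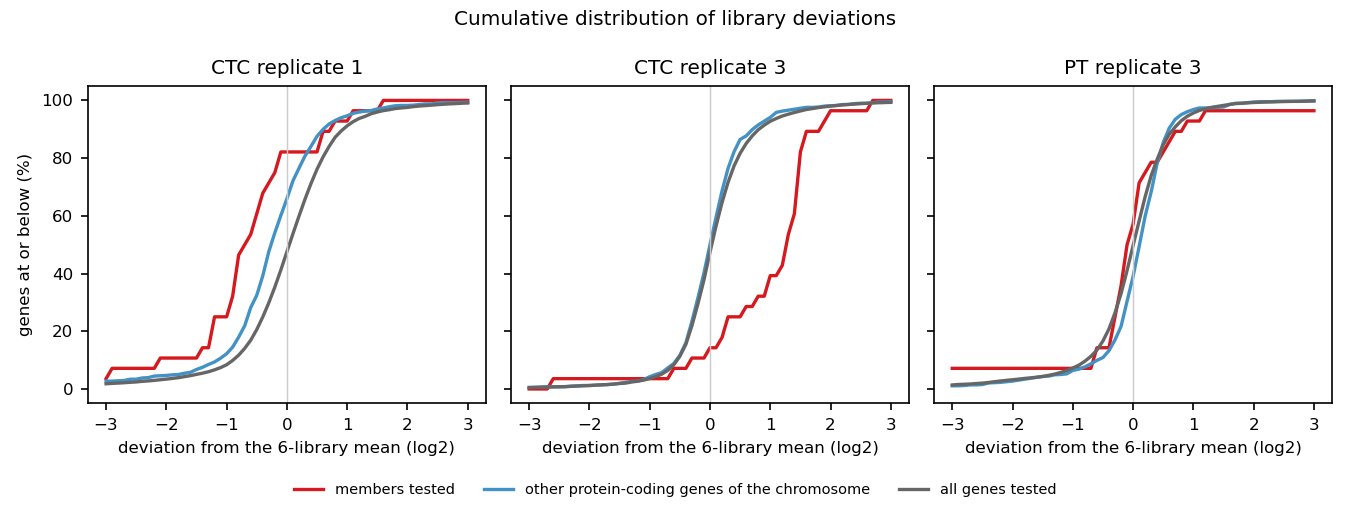
Cumulative distribution of the deviation from the 6-library mean (log2, x axis) as the percentage of genes at or below each value (y axis), in CTC replicates 1 and 3 and PT replicate 3, for the 28 members tested, the other 918 tested protein-coding genes of the chromosome and all 13874 genes tested. The curve of the members lies to the right in CTC replicate 3 (median 1.28), to the left in CTC replicate 1 (median -0.73) and near the others in PT replicate 3 (median -0.10).

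Along the chromosome the raised genes of CTC replicate 3 were bunched. From Trp53rkb to Zfp64, positions 166792531 to 168955587 (2.16 Mb, bounds chosen after the values were seen), 24 protein-coding genes were tested, B4galt5 and Snai1 included. Their median deviation in CTC replicate 3 was 1.41, 22 of 24 were above 0 and 18 were at least 2-fold above the mean. In CTC replicate 1 the same stretch had a median of -0.67, with 19 of 24 below 0. Most tested members outside this stretch were not raised 2-fold: Ncoa3 and Zfp217 were each 0.23 above the mean in CTC replicate 3, Prex1 0.19 above, and Cyp24a1 and Pfdn4 lay below it, at -2.61 and -0.62. Sulf2, between Ncoa3 and Prex1, was an exception at 1.46.

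Outside the window, 34 tested protein-coding genes from Wisp2 to Zmynd8 had a median deviation of -0.04 in CTC replicate 3, and 18 from Fam210b to Prelid3b had -0.34. Both runs were below 0 in CTC replicate 1, at -0.65 and -0.30. Further towards the centromere, a second run of 7 genes from Ift52 to Pkig, positions 163017354 to 163726158, was raised in CTC replicate 3, with a median of 1.03 and all 7 above 0. Its bounds were also chosen after the values were seen. Of the nearest tested genes on each side, Trp53rka (-0.05), Zmynd8 (0.35), Fam210b (-0.25), the mitotic kinase gene Aurka (-0.42) and Cstf1 (-0.41) lay within 2-fold of the mean in CTC replicate 3. Eya2, a transcriptional coactivator and phosphatase, lay 1.22 above it, but it was also above the mean in PT replicates 2 and 3 (1.93 and 1.63) and far below it in CTC replicate 1 (-3.91).

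**Figure D2:**
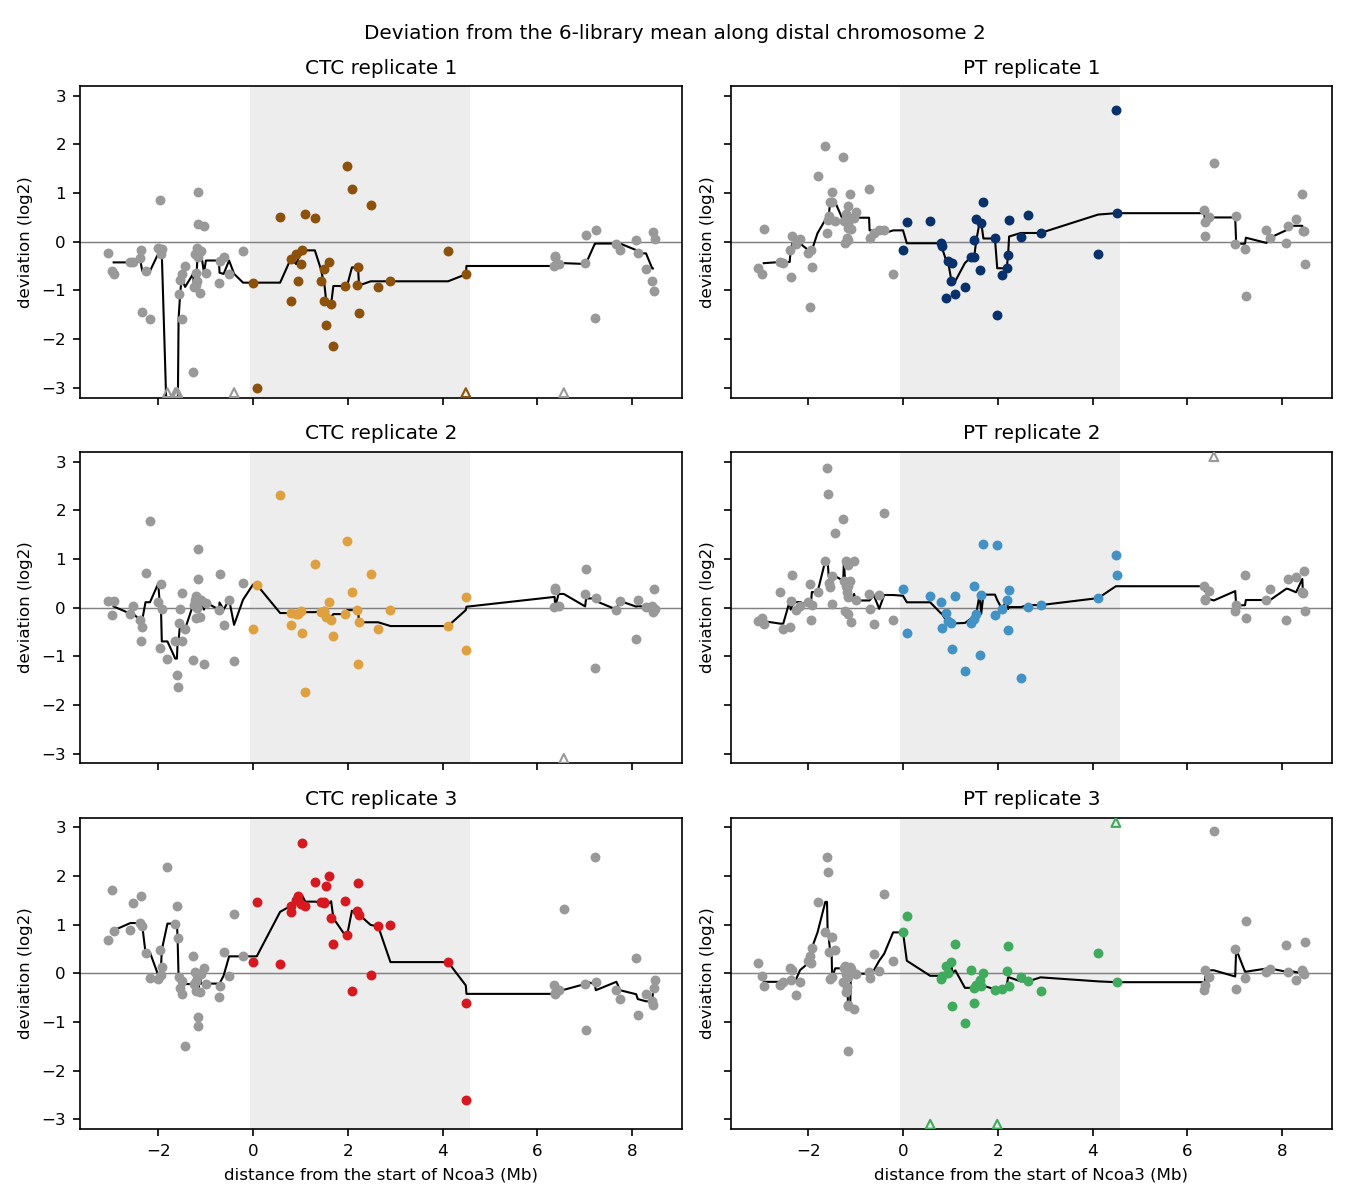
Deviation from the 6-library mean (log2, y axis) of tested protein-coding genes against distance from the start of Ncoa3 in Mb (x axis), 1 panel per library; coloured points are genes starting in the window (members plus B4galt5 and Snai1), grey points its flanks, the grey band marks the window, the line is a running median of 5 genes and open triangles lie beyond the axis. In CTC replicate 3 the stretch from Trp53rkb to Zfp64 has a median of 1.41 and the genes after the window -0.34; in the PT libraries the same stretch has medians of -0.29, -0.12 and -0.16.

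Most higher-expressed members of the raised stretch were 2-fold to 4-fold up in CTC replicate 3, with exceptions. The bounds of the stretch were set on the same values, so this is a description with no test. Among the 16 members of this stretch with a mean log2 CPM of at least 3, the CPM in CTC replicate 3 divided by the mean of the other 5 libraries had a median of 3.06, and 13 of the 16 ratios were between 2 and 4. The lowest were 0.68 (Pard6b) and 1.23 (Cebpb), and the highest was 9.15 (Znfx1). Over the 20 higher members, the deviation in CTC replicate 3 and the mean level had a Pearson correlation of 0.13, a description over genes that share the same libraries. Per length, these members ranged in mean RPKM (CPM divided by gene length in kilobases) from 2.46 for Trp53rkb to 239.7 for Cebpb, with 63.6 for Cse1l, 29.5 for Ptpn1 and 12.7 for Znfx1.

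**Figure D3:**
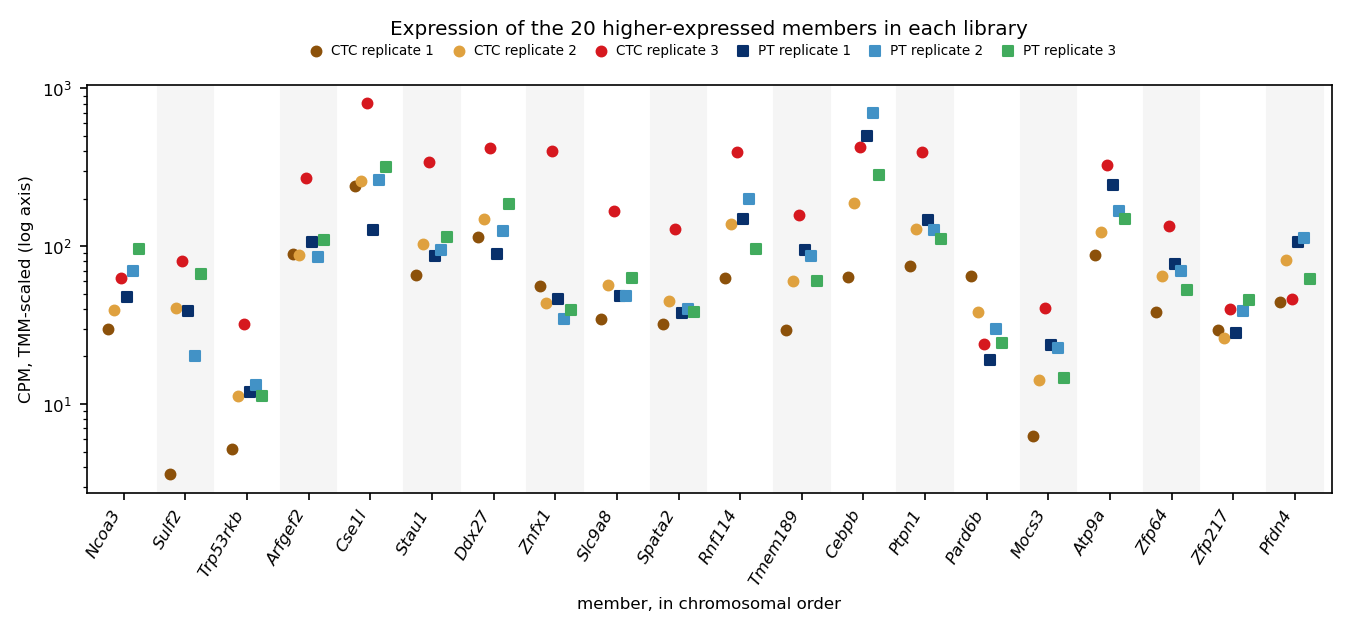
CPM on a log axis (y axis) of the 20 higher-expressed members in chromosomal order (x axis), 1 point per library, circles for CTC and squares for PT. The red points of CTC replicate 3 are the highest of the 6 for 15 of the 20 members, and CTC replicate 1 is the lowest for 14.

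Of the transcription and chromatin regulators, 6 of 8 were tested and 1 of these, Adnp, was at least 2-fold above the mean in CTC replicate 3. The share there was 60.7% of all tested members and 7.21% of all genes tested. The members were chosen on this library, so nothing is read from the counts by role, here or below. Cebpb, the C/EBP beta factor of mammary and inflammatory gene control, had 63.8, 189 and 428 CPM in CTC replicates 1, 2 and 3 and 501, 697 and 284 CPM in PT replicates 1, 2 and 3. It was lowest in CTC replicate 1, and CTC replicate 3 lay inside the PT range. Ncoa3, the p160 coactivator of steroid receptors, had 29.7, 39.2 and 62.5 CPM in CTC and 47.6, 69.2 and 95.6 CPM in PT. It was lower in the CTC library of every pair, although CTC replicate 3 overlapped the PT values. Zfp217, a zinc-finger repressor studied as a breast cancer gene, ranged only from 26.1 to 45.4 CPM over the 6 libraries.

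Zfp64, another zinc-finger factor, had 38.4, 65.2 and 135 CPM in CTC and 76.6, 70.0 and 52.7 CPM in PT, highest in CTC replicate 3 and lowest in CTC replicate 1. Adnp, a homeodomain chromatin protein, and Nfatc2, a calcium-dependent factor of immune cells, were low. Adnp had 354 counts in CTC replicate 3 and 84 to 146 elsewhere; it is overlapped on its own strand by the readthrough model Gm20716, so its counts are uncertain. Nfatc2 had 43 to 249 counts with its highest value in CTC replicate 1. Sall4 and Tshz2, developmental zinc-finger factors, were not tested, with at most 9 and 24 counts in any library. In CTC replicate 3, 7 tested genes of the C/EBP family and its partners, Cebpb included, had a median deviation of 0.03. The 7 genes listed with the p160 and CBP/p300 coactivators, Carm1 and Prmt1 included, had a median of 0.23, which is the value of Ncoa3 itself.

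All 5 members listed under RNA handling and translation were tested and all 5 were at least 2-fold above the mean in CTC replicate 3. All 5 lie in the raised stretch, whose bounds were set on these values. Znfx1, a helicase that senses viral RNA and is induced by interferon, had 55.8, 43.7 and 403 CPM in CTC and 46.5, 34.7 and 39.5 CPM in PT. The value in CTC replicate 3 was 9.15 times the mean of the other 5 libraries, which lay close together. Stau1, a double-stranded RNA-binding protein of mRNA transport and decay, had 65.2, 104 and 342 CPM in CTC and 86.3, 94.2 and 114 CPM in PT. Its CTC replicate 3 value was 3.69 times the mean of the others, with CTC replicate 1 the lowest.

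Ddx27, a DEAD-box helicase of ribosome assembly, had 114, 149 and 420.2 CPM in CTC and 89.4, 125 and 184 CPM in PT. Rnf114, a RING ubiquitin ligase placed in this list, had 62.5, 139 and 398 CPM in CTC and 149, 198 and 95.7 CPM in PT. Mocs3, a sulfur transferase that acts in molybdenum cofactor synthesis and tRNA thiolation, had 6.25, 14.1 and 40.4 CPM in CTC and 23.8, 22.6 and 14.6 CPM in PT. In each of the 3, CTC replicate 3 was above all other libraries; CTC replicate 1 was the lowest for Rnf114 and Mocs3, and PT replicate 1 for Ddx27. Rnf114 overlaps Spata2 on the opposite strand, and with strand not stated their shared bases cannot be assigned.

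Of 6 tested members of membrane traffic, nuclear transport and small GTPase control, 2 were at least 2-fold above the mean in CTC replicate 3. Cse1l, the exportin that recycles importin alpha to the cytoplasm, had 239, 259 and 807 CPM in CTC and 127, 262 and 317 CPM in PT. Arfgef2, an exchange factor for ARF GTPases of the Golgi, had 89.0, 88.5 and 272 CPM in CTC and 106, 84.9 and 109 CPM in PT. For both, CTC replicate 3 was more than 2-fold above every other library, while the other CTC values were near those of PT. Atp9a, a phospholipid-transporting ATPase relative of endosomes, had 88.1, 122 and 326 CPM in CTC and 246, 168 and 149 CPM in PT, a deviation of 0.97 in CTC replicate 3.

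Pard6b, a polarity protein that works with atypical protein kinase C at the apical junction, did not follow its neighbours. It had 65.0, 38.6 and 24.02 CPM in CTC and 19.1, 30.1 and 24.4 CPM in PT. CTC replicate 1 was its highest library, at 1.08 above the mean, and CTC replicate 3 was close to its matched tumour, with a ratio of 0.983. Across the 6 libraries its log2 CPM correlated at -0.59 with the median of the other 19 higher members, the lowest of the 20. Prex1, a Rac exchange factor, had 3 to 310 counts, and Ripor3 had 0 to 71 counts; neither was highest in CTC replicate 3.

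All 4 tested members listed as ubiquitin, phosphatase and adaptor genes were at least 2-fold above the mean in CTC replicate 3. All 4 also lie in the raised stretch. Ptpn1, the phosphatase PTP1B, had 74.9, 128 and 393 CPM in CTC and 147, 126 and 110.5 CPM in PT. CTC replicate 3 was 3.35 times the mean of the other libraries and CTC replicate 1 was the lowest. Spata2, which brings the deubiquitinase CYLD to the linear ubiquitin ligase complex, had 32.0, 44.9 and 129 CPM in CTC and 37.6, 39.9 and 38.1 CPM in PT. Its 5 other libraries were within a narrow range, as for Znfx1.

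Tmem189, now known as the desaturase that makes plasmalogens, had 29.6, 60.03 and 158 CPM in CTC and 94.5, 86.4 and 60.25 CPM in PT. Ube2v1, a ubiquitin-conjugating enzyme variant, had 91 counts in CTC replicate 3 and 9 to 22 elsewhere. Both are overlapped by the readthrough model Gm20431, and Tmem189 also by Cebpb on the opposite strand, so their counts are uncertain. Bcas1, a breast carcinoma amplified sequence gene better known from myelinating cells, had 3221 counts in CTC replicate 3 (126 CPM). It had 4 and 0 counts in CTC replicates 1 and 2, and 0, 3 and 0 in PT. With nearly all its counts in 1 library it did not pass the filter on low counts. It lies beyond the raised stretch, between Zfp217 and Cyp24a1, neither of which was 2-fold above its mean there.

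Sulf2, a secreted sulfatase that edits heparan sulfate, had 3.59, 40.4 and 80.1 CPM in CTC and 38.9, 20.2 and 66.2 CPM in PT. CTC replicate 1 lay 2.99 log2 units below the 6-library mean, and CTC replicate 3 was the highest but close to PT replicate 3. Dpm1, a subunit of dolichol-phosphate mannose synthase, had 394 counts in CTC replicate 3 and 44 to 149 elsewhere, under the same readthrough model as Adnp. Cyp24a1, the hydroxylase that inactivates vitamin D, had 0, 17 and 4 counts in CTC and 244, 69 and 505 counts in PT. Every PT library was above every CTC library, a separation that no other tested member showed. Its transcript overlaps that of Pfdn4, a prefoldin subunit, on the opposite strand. Pfdn4 had 44.4, 82.3 and 46.2 CPM in CTC and 106, 112 and 62.4 CPM in PT, lower in the CTC library of every pair. Ptgis, the prostacyclin synthase, had 1 or 2 counts in each library.

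Among channels and transporters, Slc9a8, a sodium-proton exchanger of the Golgi, had 34.6, 56.7 and 168 CPM in CTC and 48.5, 48.5 and 63.1 CPM in PT. CTC replicate 3 was again the highest, at 3.34 times the mean of the others. Kcng1, a potassium channel modifier subunit, had 60 counts in CTC replicate 3 and none in the other 5 libraries; it was not tested. Trp53rkb, a kinase of a tRNA-modifying complex, stood in no list; it had 5.18, 11.3 and 32.1 CPM in CTC and 12.0, 13.2 and 11.2 CPM in PT. It has a close paralogue, Trp53rka, outside the window, so reads may be divided between them. The remaining untested members, Gm20431, Gm20716 and Gm11011, had at most 3 counts in any library, and Gm11011 had none.

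Profiles were compared by the Pearson correlation of each higher member with the median of the other 19 over 6 libraries. The closest were Ptpn1 and Trp53rkb (0.98 each), then Stau1 and Slc9a8 (0.96 each). The farthest after Pard6b were Pfdn4 (-0.19), Zfp217 (0.40), Ncoa3 (0.41) and Cebpb (0.56). These values rest on 6 shared libraries, of which CTC replicates 1 and 3 were the extremes, and carry no test.

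The comparison of CTC with PT asked how circulating tumour cells differ from cells of the primary tumour. In edgeR's quasi-likelihood test over 13874 genes, no gene passed an adjusted p (Benjamini-Hochberg) of 0.05, a background of 0%, and 0 of the 28 members passed; the smallest adjusted p was 0.611 over all genes and 0.726 among members. At an unadjusted p under 0.05 in edgeR there were 919 of the 13874 genes (460 higher and 459 lower in CTC). Among them were 2 of the 28 members, a share close to that of all genes. DESeq2 over the same genes called 62 (29 higher and 33 lower), a background of 0.447%, and 1 member, Cyp24a1, and limma-voom called 0. For Znfx1, DESeq2 gave no adjusted p, so that member could not be called by it. Fold changes from here on are log2, CTC minus PT. Their standard errors and the interval were derived from the fold change and the F statistic of the edgeR test, and are approximate. Cyp24a1 fell in DESeq2 (adjusted p = 0.000184); edgeR gave -5.26 ± 1.33 (SE; 95% interval from -8.33 to -2.20) and an adjusted p of 0.726. No member was higher in every CTC library than in every PT library (5.95% of all genes were), and 1 of 28 (3.57%), Cyp24a1, was lower without overlap (6.16% of all genes).

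The median log2 fold change of the tested members was 0.53, with 20 positive and 8 negative, against 0.053 over all genes tested. It depended on 1 library: without CTC replicate 3 the median was -0.34, and 10 of the 20 higher members changed sign. With the matched pair as a block it was 0.22. Znfx1 had a log2 fold change of 2.06 ± 0.81 (edgeR adjusted p 0.726). Its mean over the CTC libraries was 167 ± 204 CPM (SD, n = 3) and over the PT libraries 40.3 ± 5.94 CPM (SD, n = 3). For Ptpn1 these means were 199 ± 170.5 CPM (SD, n = 3) and 128 ± 18.5 CPM (SD, n = 3), a log2 fold change of 0.63 ± 0.56. For both, the spread between CTC libraries exceeded the difference of the means. Cebpb had a log2 fold change of -1.12 ± 0.65 (edgeR adjusted p 0.727). With no low-count filter, edgeR called 199 of 27331 genes, a background of 0.728% (121 higher and 78 lower), and 3 of the 35 members fitted: Znfx1 and Bcas1 higher and Cyp24a1 lower. Their adjusted p values in edgeR were 0.0294, 0.00113 and 0.00208; Znfx1 and Bcas1 were high in CTC replicate 3 alone.

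The matched mice differed in the sign and size of the difference. The median CTC minus PT difference of the 28 tested members (log2 CPM) was 1.33 in pair 3, with 23 higher and 5 lower. In pair 1 it was -0.38, with 10 higher and 18 lower, and in pair 2 it was -0.058, with 13 higher and 15 lower. Over all genes tested these medians were -0.0024, 0.085 and -0.0067 for pairs 3, 1 and 2. Over the other 918 tested protein-coding genes of the chromosome they were -0.12, -0.23 and -0.066, with 547 of 918 lower in pair 1, and 577 of 918 lower in pair 3. In pair 3, Znfx1 was 10.2 times its tumour value, Rnf114 4.15 times, Ptpn1 3.56 times, Spata2 3.39 times and Stau1 3.00 times. Cebpb was 1.51 times its tumour value there, while Ncoa3 was at 0.654. In pair 1, Cebpb was at 0.127 of its tumour value and Sulf2 at 0.0922.

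**Figure D4:**
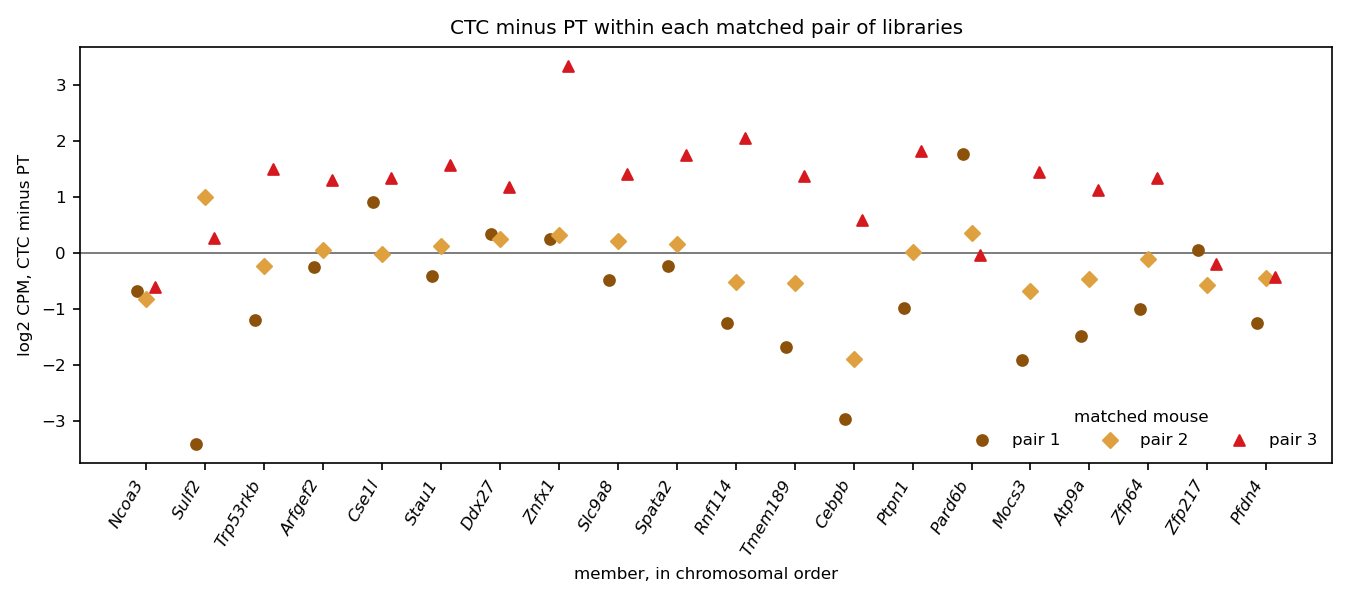
CTC minus PT difference in log2 CPM (y axis) of the 20 higher-expressed members in chromosomal order (x axis), 1 symbol per matched mouse. Pair 3 lies above 0 for 16 of the 20 members, and in pair 1 the CTC library is below its tumour for 15.

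Genes of the window that the rule left out or did not cover were also high in CTC replicate 3. Snai1, the epithelial-mesenchymal transition factor, had 19.1, 54.3 and 216 CPM in CTC and 86.1, 57.0 and 53.1 CPM in PT, a deviation of 1.79 in CTC replicate 3. B4galt5, a galactosyltransferase of glycolipid synthesis, had 66.5, 88.5 and 174 CPM in CTC and 24.8, 19.2 and 23.4 CPM in PT. B4galt5 was above PT in every CTC library, unlike any tested member. Of 68 non-coding genes in the window, 10 were tested and 7 of these lay at least 2-fold above the mean in CTC replicate 3. The most abundant was Zfas1, a snoRNA host gene that overlaps the start of Znfx1 on the opposite strand, with 45.9, 40.0 and 177 CPM in CTC and 18.1, 58.2 and 44.9 CPM in PT. The other 6 had at most 73 counts in any library. Of a list of 46 distal chromosome 2 genes outside the window, 34 were tested. Their median deviation was -0.26 in CTC replicate 3 and 2 of them, Eya2 and Tfap2c, were at least 2-fold above the mean. The list leaves out other raised genes of the flanks. By position, the genes at least 2-fold above there were 4 of 7 from Ift52 to Pkig and 4 of 34 from Wisp2 to Zmynd8. From Fam210b to Prelid3b they were 2 of 18. Of the other 918 tested protein-coding genes of the chromosome, 54 were at least 2-fold above, and of all genes tested 7.21%.

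Several other readouts moved with CTC replicate 3. Of the 24 interferon-response genes, 22 lay at least 2-fold above the mean in it and 23 were highest there, with a median deviation of 3.57. Irf7, the interferon regulatory factor, had 14.98, 7.80 and 294 CPM in CTC and 10.9, 23.95 and 3.195 CPM in PT. A list of 10 adipocyte markers, with 4 tested, summed to 407 CPM in it, to 0.746 and 24.7 in the other CTC libraries and to 3.15 to 5.75 in PT. Most of that was the fatty acid carrier Fabp4 (347 CPM), followed by Plin4 (36.6 CPM) and Pparg (19.6 CPM, and 19.3 CPM in CTC replicate 2). Plin1, Cidec and Cfd, with 31, 35 and 29 counts, were also highest in CTC replicate 3. The defining hormones Adipoq and Lep were at 0 counts there, as was Retn, and Lpl had 1 count. A list of 10 neutrophil markers, 5 of them tested, summed to 210 CPM in it, to 4.62 and 7.75 in the other CTC libraries and to 11.4 to 93.0 in PT. Most of that was lactoferrin (Ltf, 182 CPM), and S100a8 (25.3 CPM) was also highest there. Mpo, Camp, S100a9 and Elane were highest in PT replicate 2, while Ly6g and Retnlg were at 0 counts in every library.

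A list of 10 fibroblast markers, 6 of them tested, summed to 510 CPM in CTC replicate 3. The sum was 9.30 and 109 CPM in the other CTC libraries and 28.5 to 621 CPM in PT. Most of the 510 CPM was Col6a3 (345 CPM), followed by Col3a1 (125 CPM) and Pdgfra (38.7 CPM). Col3a1 and Pdgfra were highest in CTC replicate 3, while Col6a3 was highest in PT replicate 1 (545 CPM). Dcn, Pdgfrb and Col1a1 had 10, 21 and 11 counts in CTC replicate 3 and were highest in other libraries. Col1a2, Thy1 and Lum were at 0 counts in CTC replicate 3. Macrophage markers, 5 of 10 tested, summed to 80.2 to 106 CPM in CTC and 128 to 504 in PT, with Adgre1, C1qa, C1qb and C1qc at 0 counts in every library. Leukocyte markers, 2 of 10 tested, summed to 2.19 CPM in CTC replicate 3, with Ptprc at 0 counts there. The sum was 8.77 and 9.17 CPM in the other CTC libraries and 1.78 to 17.4 CPM in PT. The 17.4 CPM was in PT replicate 1, where Arhgdib, which was not tested, gave 14.3 CPM. Of the tested markers, Itgb2 had 5.54, 6.17 and 1.37 CPM in CTC and 1.19, 2.36 and 0.871 CPM in PT. Coro1a had 1.10, 2.58 and 0.235 CPM in CTC and 1.53, 1.63 and 0.830 CPM in PT. Lymphocyte and endothelial markers, 0 of 10 tested in each list, summed to at most 1.28 and 3.87 CPM in any library. The part of these readouts in the levels of the block was not tested.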

How the data were processed

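The deposited data are unnormalized read counts, 1 column for each of 6 libraries, with Ensembl identifiers and gene lengths. Per the submitters' processing notes, HISAT2 and the builds GRCm38 and mm10 were used; versions, strand and the read counter are not given in the sources consulted, nor is the annotation. All 36 members had the same start and end in GENCODE M21.

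Counts were tested with edgeR 4.0.16 (R 4.3.3; glmQLFit and glmQLFTest, TMM, filterByExpr by group, Benjamini-Hochberg at 0.05), without a block; library deviations used log2 CPM with a prior count of 2. DESeq2 1.42.0, limma-voom (limma 3.58.1), other scalings, filters, prior counts and references, a gene length correction (lowess span 0.4), a replicate block, and leaving out libraries or pairs were alternatives. The scripts were tested on simulated data. P-values measure the spread between these libraries, labelled as biological replicates. Floors cover counting error only, since reads were not collapsed to molecules by identifiers in any stated step.

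Libraries with the same number come from matched mice per the series design, which pairs them; their deviations from the group means correlated at -0.015, 0.157 and 0.298 across genes for pairs 1, 2 and 3. Members were accounted for except 1, which is not reported here. Those with a mean log2 CPM of at least 3 are given in every library, others by range and counts, and outside the window the 3 nearest tested protein-coding genes on each side are named. Other genes outside the rule were named after their values were seen. Members and lists were chosen with earlier results of these data known.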

Additional observations from a re-analysis of the deposited data

How the results depend on the processing

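The median deviation of the members in CTC replicate 3 stayed between 1.14 and 1.34 over 12 alternatives and between 0.95 and 1.31 when a library or a matched pair was left out. The count at least 2-fold above the mean there was 13 to 21 and 13 to 19. Leaving out libraries or pairs gave medians of -0.86 to -0.41 in CTC replicate 1, -0.41 to 0.16 in CTC replicate 2, -0.29 to 0.10 in PT replicate 1, -0.17 to 0.22 in PT replicate 2 and -0.27 to 0.14 in PT replicate 3. It gave counts in CTC replicate 1 of 5 to 9 members 2-fold below and 1 to 3 above (2 with all libraries), and a median log2 fold change of -0.34 (without CTC replicate 3) to 0.85; without pair 3 it was -0.27. edgeR made 0 calls in each of these. With no filter there were 199 calls, 3 of them members, and the PT replicate 2 median was -0.13. DESeq2 made 62 calls (1 member), and 248 (1 member) with a replicate block, a setting added after the data were seen. The gene length correction gave 11 members 2-fold below in CTC replicate 1 (7 without it) and a PT replicate 1 median of -0.012. With the 6-library median as reference, 1 member was 2-fold above in CTC replicate 1 and the PT replicate 1 median was 0.043. Restricting to the 20 higher members left 1 above in CTC replicate 1 and 0 below in CTC replicate 3 (1 over all tested). The cause was not tested.

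With the replicate block for matched mice, edgeR made 0 calls (smallest adjusted p 0.199 over all genes and 0.762 among members) and the median log2 fold change of the members was 0.22, or 0.12 with the length correction as well; it changed no call. Of the alternative values of the main results, 224 stayed the same by the limits set and 29 moved. The limits were wider for CTC library medians, whose SD was 1.03, than for PT library medians (SD 0.0853). A shift of the PT replicate 1 median from -0.13 to -0.012 (gene length correction) counted as moved. A larger shift of the CTC replicate 2 median, from -0.12 to -0.30 (without CTC replicate 1), counted as the same. The count of 224 therefore says little about how stable the CTC medians were. Of the 8 untested members, Bcas1 had nearly all its counts in 1 library and the other 7 had at most 60 counts in any library. Whether depth limited the calls was not tested.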
